A study of Drosophila melanogaster with 2 samples.

Results

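The DNA replication machinery was followed through nuclear RNA of Drosophila melanogaster glia and of the Gcm-expressed neural progenitors (GNP) from which glia arise. Its members are 35 genes chosen by name for their roles in origin licensing, the replicative helicase, the DNA polymerases, the sliding clamp, nucleotide reduction and chromatin assembly. Of these, 34 were found by symbol among the 13623 genes with deposited values. RfC40, a subunit of the clamp loader, carries the symbol RfC4 in those values according to RefSeq synonyms, so it was left out of the members and is described with the other replication genes. Glial nuclei came from embryos aged 12 to 14 h after egg laying, in which repo-Gal4 drove the nuclear tag UAS-3xFLAG-blrp-mCherry-RanGap in a line kept over the balancer Tm3B. GNP nuclei came from embryos aged 5 to 7 h, in which gcm-Gal4 drove the same tag in a line that also carried UAS-mCDGFP over cyo. The tagged nuclei were pulled from homogenates of whole cross-linked embryos with anti-Flag beads. The driver, the age of the embryo and the genetic background therefore changed together, and gcm is also active in hemocyte precursors. There was 1 library of each cell type, so no difference given here has a replicate check and no test was possible.

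Eukaryotic origins are licensed when the origin recognition complex, Cdc6 and Cdt1 load the MCM2-7 ring onto DNA, and the ring becomes an active helicase once Cdc45 and the GINS complex join it. DNA polymerase alpha with its primase starts each strand, and polymerases epsilon and delta extend the strands while held by the PCNA clamp. In the fly embryo many of these RNAs are first supplied by the mother, and later they are typical of tissues that still divide.

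The 2 libraries differed in summed FPKM, in estimated depth and in the markers of several cell types. FPKM, the fragments counted for a gene relative to its transcript length and to the mapped reads of the library, summed to 887471 in the glia library and to 744843 in the GNP library. Steps of whole reads among low values corresponded to about 52600000 mapped reads for glia and 64300000 for GNP. The glial marker repo was at 32.0 FPKM in glia and 3.84 FPKM in GNP, and 4 of 9 glial markers, led by nrv2 in both libraries, were at least 2-fold higher in glia, with none at least 2-fold lower. Markers of other cell types also differed. The 8 neuroblast markers, led by sna in glia and mira in GNP, summed to 177 FPKM in glia and 352 FPKM in GNP, and 4 of them were at least 2-fold lower in glia. The 7 neuron markers, led by fne in glia and elav in GNP, summed to 568 FPKM in glia and 117 FPKM in GNP, with 6 at least 2-fold higher, and the 6 muscle markers, led by Act57B in both, to 6000.1 FPKM in glia and 851 FPKM in GNP, all at least 2-fold higher. The 7 plasmatocyte markers, led by Pxn in glia and srp in GNP, summed to 109 and 86.8 FPKM in glia and GNP. Among them eater was listed at 0 in glia, only Pxn was at least 2-fold higher in glia and 0 were at least 2-fold lower. The 5 germ cell markers, led by vas in glia and aub in GNP, summed to 22.1 and 49.3 FPKM in glia and GNP. Of these, 4 were at least 2-fold lower in glia and vas was at least 2-fold higher. The part of these cell types in the values of the replication genes was not tested.

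All 34 replication genes were lower in the glia library than in the GNP library, as were 5919 of all 13623 genes. On the log2(FPKM + 1) scale, where 1 FPKM is added to each value and the change of low genes is understated, 31 of the 34 were at least 2-fold lower in glia and 0 at least 2-fold higher. The same limit was passed downwards by 16.4% of all genes, and by 22.5% of the 9795 genes whose mean over both libraries reached 1 FPKM, as it did for all 34 members. It was passed upwards by 21.2% of all genes. At least 4-fold lower were 14 members, against 4.51% of all genes. The median log2 change of the members was -1.84 (range -3.42 to -0.44), while that of all genes was 0.04. In summed FPKM the members made up 639.6 in glia and 2679 in GNP. In bulk nuclei, fewer cells that transcribe these genes and less RNA per cell cannot be told apart.

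**Figure D1:**
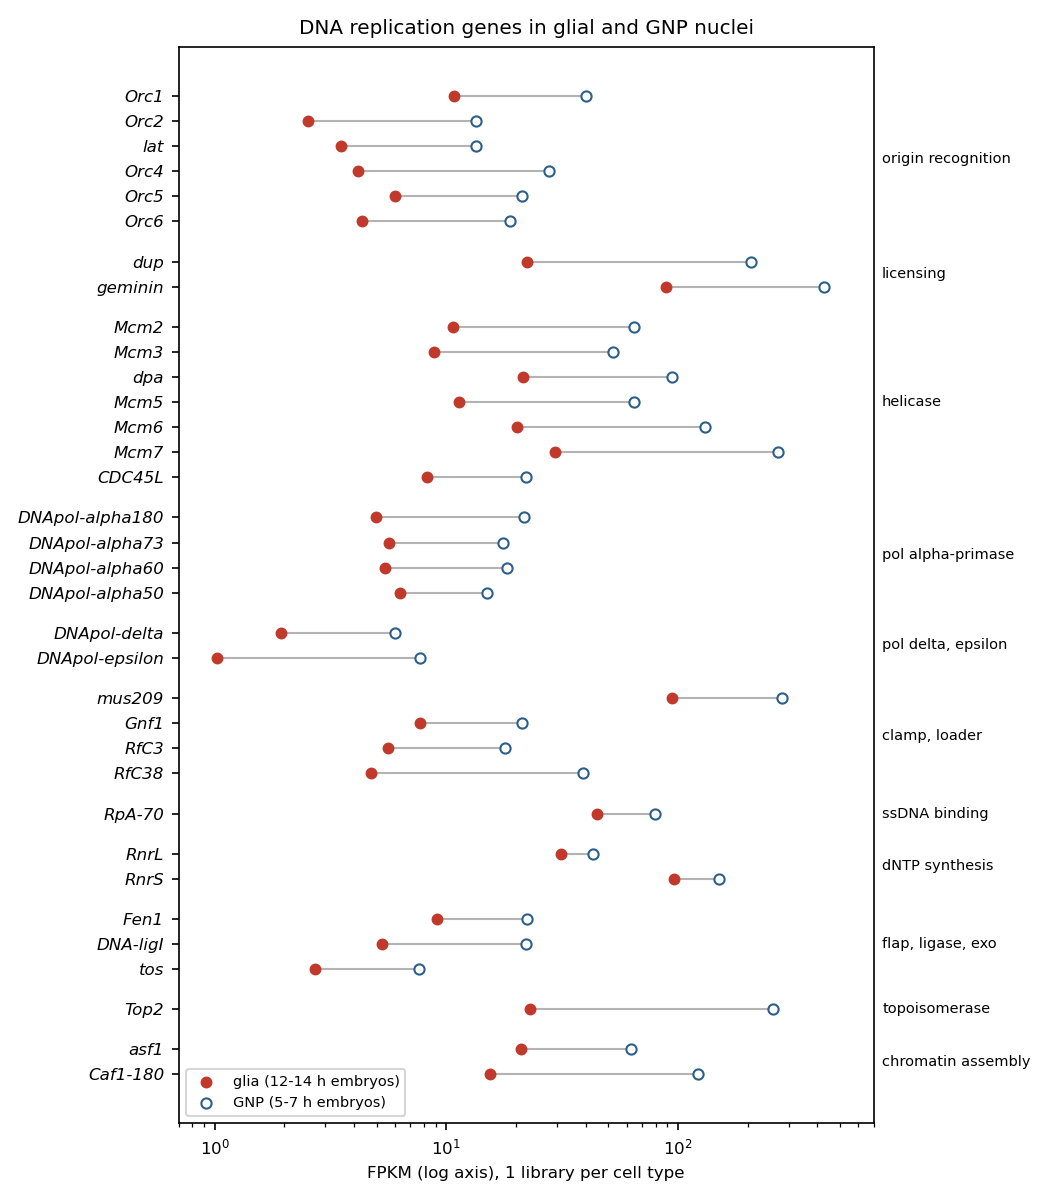
FPKM of the 34 DNA replication genes (log axis) in the glia library (filled red points) and the GNP library (open blue points), grouped by role, with 1 library of each cell type. Every filled point lies left of its open point, and the lines are shortest for RnrL, RnrS and RpA-70.

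The members also moved down in rank, a measure that does not depend on how the libraries are scaled. Their median position among all genes was percentile 50.6 in glia and percentile 75.5 in GNP. All 34 had a lower percentile in glia, as did 7222 of all 13623 genes. The order of the members was largely kept, with a Spearman rho of 0.89 between their glia and GNP levels over 34 genes, near the 0.87 over all 13623 genes. These genes share their libraries, so the rho is a description.

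**Figure D2:**
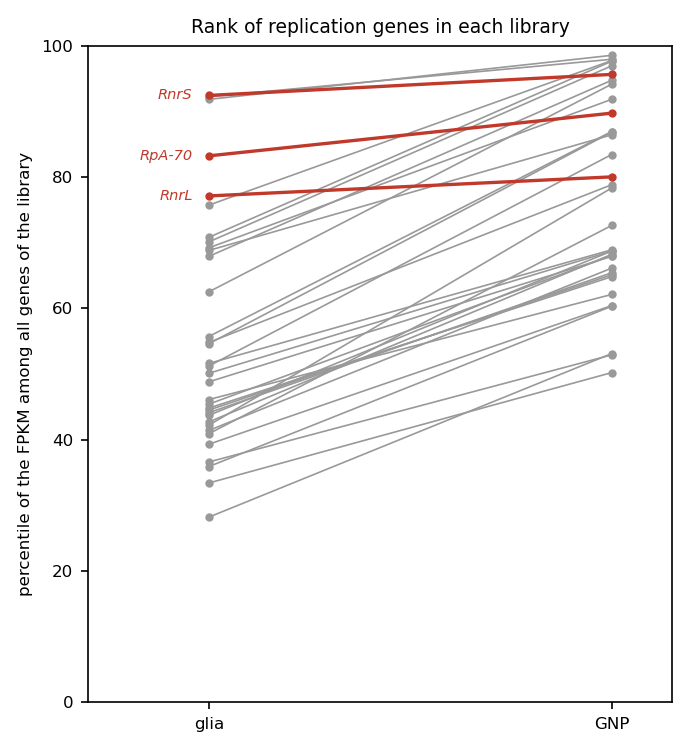
Percentile of each replication gene among all genes of the same library, glia on the left and GNP on the right, 1 line per gene. The median is percentile 50.6 in glia and 75.5 in GNP. All 34 lines are lower at the glia end, as was the percentile of 7222 of all 13623 genes. Red lines mark RnrS, RpA-70 and RnrL, the members under 2-fold.

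The origin recognition complex, which marks where replication can start, was lower as a whole. Its 6 members were all at least 2-fold lower in glia, with log2 changes between -2.48 and -1.67. Orc1, an ATPase subunit, was the highest of them in both libraries, at 10.8 FPKM in glia and 40.1 FPKM in GNP (log2 change -1.80). Orc4 was at 4.14 FPKM in glia and 27.7 FPKM in GNP, which gave the lowest log2 change of the complex (-2.48). Orc2 was at 2.52 FPKM in glia and 13.4 FPKM in GNP (-2.03). The remaining subunits differed less. The gene lat, which encodes the Orc3 subunit, was at 3.53 FPKM in glia and 13.5 FPKM in GNP (-1.68), and Orc5 at 5.999 and 21.3 FPKM (-1.67). Orc6, which in the fly also takes part in cytokinesis, was at 4.34 FPKM in glia and 18.9 FPKM in GNP (-1.90). The counting is not stated to use strand, and 5 of the 6 overlap an exon of a gene on the opposite strand in the BDGP6 annotation and lat overlaps CG34315 on its own strand.

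The loading factor and its inhibitor were among the most abundant members. The gene dup encodes Cdt1, which brings the MCM ring to origins. Its BDGP6 position is 15376619 to 15380988 of chromosome 2R (minus strand), where its exons overlap SRPK on the opposite strand. The level of dup was 22.4 FPKM in glia and 206 FPKM in GNP, a log2 change of -3.15. The gene geminin, whose protein binds Cdt1 and blocks further loading, was at 89.0 FPKM in glia and 425 FPKM in GNP (-2.24). The inhibitor thus kept a larger part of its level, and geminin stood at 3.98 times the FPKM of dup in glia and 2.06 times in GNP.

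All subunits of the MCM2-7 ring were at least 4-fold lower in glia, a limit that dpa missed with glia scaled to the upper quartile of GNP (log2 change -1.91). The median log2 change of the 6 genes was -2.45. Mcm7 was the most abundant and the lowest in glia relative to GNP, at 29.5 FPKM in glia and 271 FPKM in GNP (log2 change -3.16). Its BDGP6 position is 8891596 to 8894310 of chromosome 3L (plus strand), where an antisense RNA gene overlaps its exons. Mcm6, a gene of 1 exon on chromosome X, was at 20.2 FPKM in glia and 131 FPKM in GNP (-2.64). The gene dpa encodes the Mcm4 subunit and changed least of the ring, at 21.4 FPKM in glia and 94.0 FPKM in GNP (-2.08). Between these stood Mcm2 at 10.7 and 64.4 FPKM in glia and GNP (-2.48), Mcm3 at 8.89 and 52.2 FPKM (-2.43) and Mcm5 at 11.3 and 64.8 FPKM (-2.42). The ring holds each subunit in equal number, while their RNA levels spanned 3.31-fold in glia and 5.19-fold in GNP. CDC45L, which encodes the Cdc45 partner of the ring, was at 8.27 FPKM in glia and 22.2 FPKM in GNP. Its log2 change of -1.32 lay above those of all 6 ring subunits.

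The 4 subunits of the polymerase alpha-primase complex had closely spaced levels. They spanned 1.28-fold in glia, between 4.96 and 6.32 FPKM, and 1.45-fold in GNP, between 14.9 and 21.6 FPKM. DNApol-alpha180, the catalytic subunit, was at 4.96 FPKM in glia and 21.6 FPKM in GNP (log2 change -1.92). DNApol-alpha73, the regulatory B subunit, was at 5.69 FPKM in glia and 17.5 FPKM in GNP (-1.47). The pair that forms the primase itself did not move as 1 unit. DNApol-alpha60, the large primase subunit, was at 5.45 FPKM in glia and 18.2 FPKM in GNP (-1.58), and DNApol-alpha50, which makes the RNA primer, at 6.32 and 14.9 FPKM (-1.12). With glia scaled to the upper quartile of GNP, DNApol-alpha50 had a log2 change of -0.96, under the 2-fold limit that it passes as deposited.

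The catalytic subunits of the main replicative polymerases were the least abundant members in glia. DNApol-epsilon, annotated as PolE1, was at 1.03 FPKM in glia and 7.74 FPKM in GNP. The added 1 FPKM weighs on such low values, and its log2 change was -2.11 with a pseudocount of 1 and -2.80 with 0.1. DNApol-delta was at 1.93 FPKM in glia and 5.99 FPKM in GNP (-1.26). At the estimated depths DNApol-epsilon still had about 359 reads in glia and 3310 in GNP.

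The PCNA clamp was abundant in both libraries, and each named subunit of the loader that opens it had a lower level. The gene mus209 encodes PCNA, which holds the polymerases on DNA, and was at 94.2 FPKM in glia and 282 FPKM in GNP (log2 change -1.57). It stood at percentile 92.2 in glia and 97.9 in GNP, so a clamp RNA remained among the more abundant RNAs of the glia library. Of the clamp loader, Gnf1, the large subunit, was at 7.68 FPKM in glia and 21.2 FPKM in GNP (-1.35), and RfC3 at 5.59 and 17.9 FPKM (-1.52). RfC38 differed most in this group, at 4.72 FPKM in glia and 38.9 FPKM in GNP (-2.80), and its exons overlap Nup160 on the opposite strand.

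RpA-70, RnrL and RnrS were the members that stayed under 2-fold. RpA-70, annotated as RPA1, encodes the large subunit of the protein that coats single-stranded DNA in replication and in repair. It was at 44.5 FPKM in glia and 79.6 FPKM in GNP, a log2 change of -0.83. It passed 2-fold only when the values of each library were rescaled to the same total (TPM). Before 1 is added, this rescaling lowers glia against GNP for every gene with values above 0 in both. RpA-70 is such a gene. RnrL and RnrS encode the large and small subunits of ribonucleotide reductase, the enzyme that makes deoxynucleotides for nuclear and mitochondrial DNA. RnrL was at 31.4 FPKM in glia and 42.9 FPKM in GNP, and its log2 change of -0.44 was the smallest of all members. RnrS was at 96.5 FPKM in glia and 151 FPKM in GNP (-0.64). The glia level of RnrL was thus 73.3% of its GNP level and that of RnrS 64.1%. RnrS was the most abundant member in glia, at percentile 92.4, whereas geminin was the most abundant in GNP.

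RpA-70 and Mcm2 are neighbours on chromosome 3R. They are transcribed away from each other, RpA-70 at BDGP6 position 8262120 to 8264451 (minus strand) and Mcm2 at 8264970 to 8267924 (plus strand), with 518 bases between them. Neither overlaps an exon of another gene. The glia level of RpA-70 was 55.9% of its GNP level and that of Mcm2 16.6%.

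Among the genes that finish replicated strands, Fen1 and DNA-ligI were both at least 2-fold lower. Fen1, which cuts the flaps of Okazaki fragments, was at 9.11 FPKM in glia and 22.4 FPKM in GNP (log2 change -1.21). DNA-ligI, which seals the fragments, was at 5.29 FPKM in glia and 22.2 FPKM in GNP (-1.88). The gene tos, which encodes an exonuclease of the Exo1 kind, was low in both, at 2.72 FPKM in glia and 7.64 FPKM in GNP (-1.22).

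Top2 had the lowest log2 change of the 34 members. Topoisomerase II untangles replicated chromosomes and is also needed for chromosome condensation in mitosis. Top2 was at 23.1 FPKM in glia and 257 FPKM in GNP, a log2 change of -3.42, so that its glia level was 8.97% of its GNP level. Its BDGP6 position is 19447365 to 19453490 of chromosome 2L (minus strand), where no exon of another gene overlaps it.

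Histones are deposited behind the fork by CAF-1, fed by the chaperone Asf1, and the genes of both were lower. The gene of the large CAF-1 subunit, CAF1-p180 among its RefSeq names, was at 15.5 FPKM in glia and 122 FPKM in GNP (log2 change -2.90). The gene asf1 was at 21.0 FPKM in glia and 62.6 FPKM in GNP (-1.53). Of the other CAF-1 subunits, CAF1-p105 was at 5.97 FPKM in glia and 19.6 FPKM in GNP (-1.56), and Caf1, a subunit shared with other chromatin complexes, at 62.9 and 275 FPKM (-2.11).

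**Figure D3:**
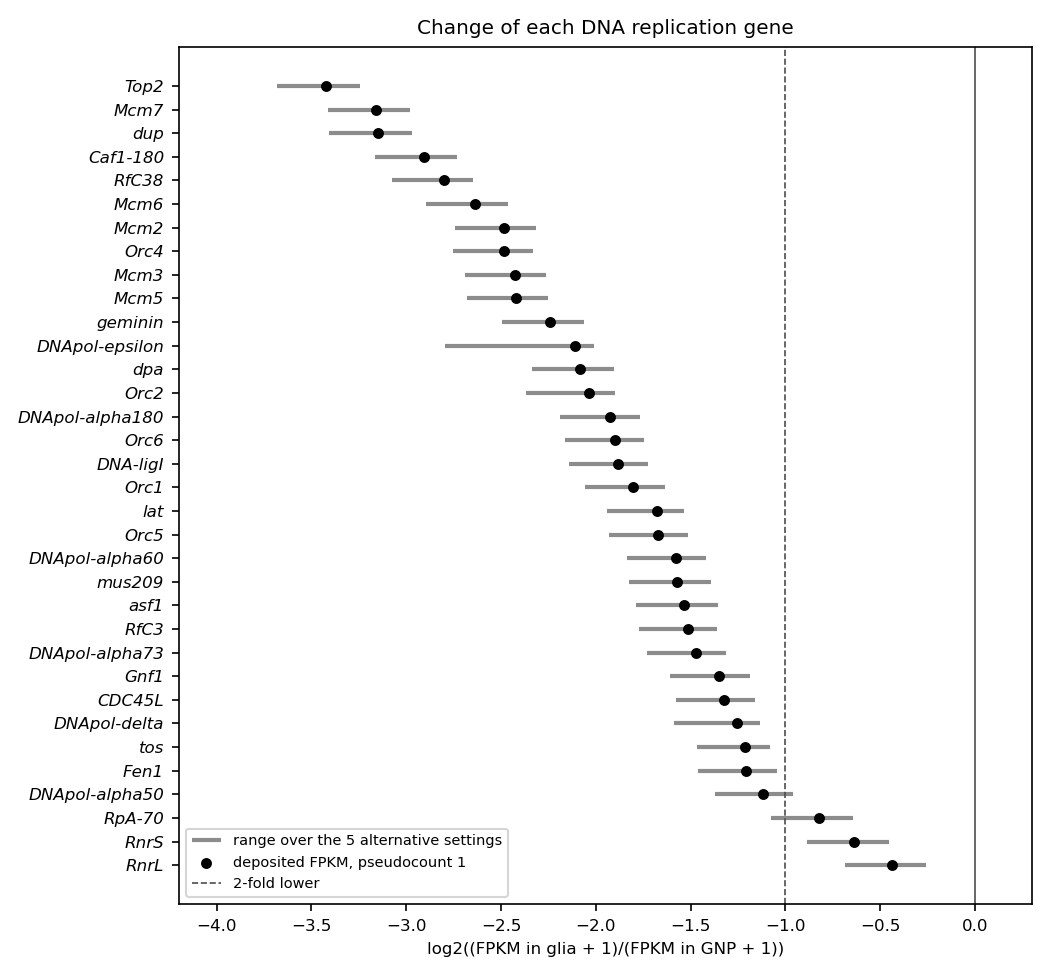
Change of each member, ordered from the lowest, on the log2(FPKM + 1) scale, glia over GNP (points), with the range over 5 alternative scalings, pseudocounts and filters (bars); solid and dashed lines mark no change and 2-fold lower. All bars lie left of 0, the lowest value is that of Top2 at -3.42, and the points right of the dashed line are RpA-70, RnrS and RnrL.

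Counting error was small beside these differences. With reads approximated from the FPKM, the shortest annotated transcript of BDGP6 and the estimated depths, the fewest reads were the 176 of Orc6 in glia, against 939 in GNP. The 95% counting intervals are for the log2 ratio of FPKM with nothing added, a different scale from the log2 changes above. On it Orc6 had -2.12 (interval -2.36 to -1.89), Top2 -3.48 (-3.52 to -3.44) and RnrL -0.45 (-0.51 to -0.39). The upper end was below 0 for all 34 members and below -1 for 31. Intervals were computed for the members only, so the share of all genes that would pass is not known. These intervals cover counting only and do not stand in for replicates. Without the 14 members whose exons overlap another gene, 17 of the remaining 20 were at least 2-fold lower, with a median log2 change of -1.55. Those left out are the origin recognition genes, dup, Mcm3, Mcm7, DNApol-alpha180, DNApol-delta, RfC38, Fen1 and DNA-ligI.

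The other replication genes showed the same direction with a few departures. Of 34 such genes, 26 were at least 2-fold lower in glia and 0 at least 2-fold higher, with a median log2 change of -1.66. The lowest were Mcm10, which acts when the helicase is activated, at 6.08 FPKM in glia and 54.1 FPKM in GNP (-2.96), and Cdc6, the MCM loader, at 13.2 and 98.1 FPKM (-2.80). RfC4, the gene listed as RfC40, was at 9.84 FPKM in glia and 35.9 FPKM in GNP (-1.77). RPA2, the middle subunit of the single-strand binding protein, was at 25.3 FPKM in glia and 96.1 FPKM in GNP. Its log2 change was -1.88, that of CG15220, annotated as the third subunit RPA3, was -1.25 (38.6 FPKM in glia and 93.0 FPKM in GNP), and that of RpA-70 -0.83.

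Accessory subunits of the polymerases were lower to differing degrees. CG12018, annotated as PolD2, had a log2 change of -1.29, Pol32 -1.52 and Pole2 -1.37. Mes4, annotated as PolE4, was at 19.5 FPKM in glia and 24.3 FPKM in GNP (-0.31), and its exons overlap qkr58E-1 on the opposite strand. Of the GINS complex, Sld5 was at 7.21 FPKM in glia and 40.9 FPKM in GNP (-2.35), Psf1 at 7.56 and 28.5 FPKM (-1.78) and Psf2 at 6.09 and 22.3 FPKM (-1.72). Psf3 stood apart from these partners, at 29.99 FPKM in glia and 25.2 FPKM in GNP. Its log2 change of 0.24 was near 0 with TPM (-0.0012), and its exons overlap CG17841 on the opposite strand. CG10262, annotated as PCNA2, was at 5.04 FPKM in glia and 2.93 FPKM in GNP (0.62), whereas mus209 itself had -1.57. It stayed above 0 under each scaling tried, with log2 changes of 0.44 to 0.77. The kinase gene l(1)G0148, annotated as Cdc7, was at 10.4 FPKM in glia and 12.8 FPKM in GNP (-0.28), whereas chif, its Dbf4-like activating partner, was at 19.3 and 85.9 FPKM (-2.10).

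Of 4 genes of nucleotide supply beyond the reductase, 3 were at least 2-fold lower in glia and 0 at least 2-fold higher. The gene dUTPase, which keeps uracil out of DNA, was at 59.8 FPKM in glia and 408 FPKM in GNP (log2 change -2.75). Thymidylate synthase, Ts, was at 7.68 FPKM in glia and 27.8 FPKM in GNP (-1.73), and the deoxynucleoside kinase dnk at 77.8 and 202 FPKM (-1.37).

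Of 11 genes for histone chaperones and histone RNA processing, 7 were at least 2-fold lower and 0 at least 2-fold higher, with a median log2 change of -1.34. The lowest were Caf1 and mxc (-2.04), a scaffold of the histone locus body. The highest were Ssrp, a subunit of FACT, at 37.2 FPKM in glia and 53.5 FPKM in GNP (-0.51), and Hira, which deposits the replication-independent histone H3.3, at 6.001 and 8.89 FPKM (-0.50).

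Regulators of S phase, listed together with the cell cycle gene stg, included genes that were little different. Of these 14 genes 11 were at least 2-fold lower, stg (-1.27) among them, with a median log2 change of -1.57. E2f, the activating transcription factor of replication genes, was at 62.9 FPKM in glia and 88.1 FPKM in GNP (-0.48). Rbf, the retinoblastoma protein that holds it in check, was at 24.6 FPKM in glia and 38.7 FPKM in GNP (-0.63). The lowest were Rbf2, at 1.84 and 22.6 FPKM in glia and GNP (-3.06), and CycE, the cyclin that starts S phase, at 12.0 and 77.6 FPKM (-2.59). The gene dap, which encodes the inhibitor of Cyclin E kinase, was at 100.1 FPKM in glia and 223 FPKM in GNP (-1.15).

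Genes of mitosis and cytokinesis had lower log2 changes than the replication genes, though the difference between the lists was not tested. All 29 were at least 2-fold lower in glia and 27 at least 4-fold lower, with a median log2 change of -3.32 beside -1.84 for the 34 members. The lowest were CycB, at 59.3 FPKM in glia and 1067 FPKM in GNP (-4.15), and BubR1, a spindle checkpoint kinase, at 3.34 and 73.3 FPKM (-4.10). The highest were Bub1 (-1.18) and Bub3 (-1.82). Top2, Mcm7 and dup, with -3.42, -3.16 and -3.15, were the members nearest to the mitotic median.

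**Figure D4:**
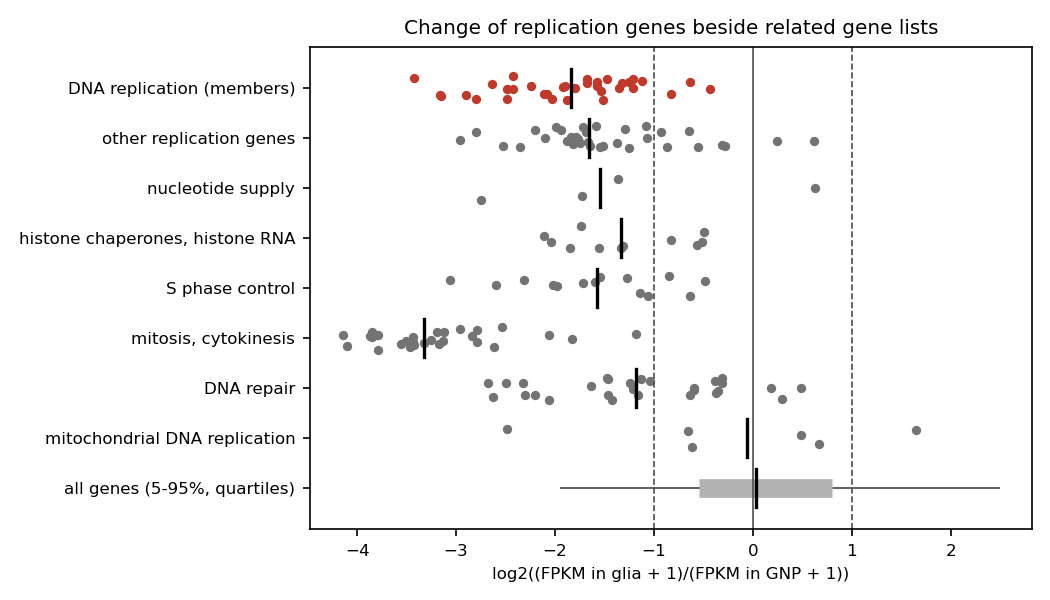
Log2 change of single genes (points) and median (black bars) for the 34 members (red), for 7 related gene lists (grey), and for all genes (thin line 5th to 95th percentile, thick line quartiles); dashed lines mark 2-fold. The medians are -1.84 for the members, -3.32 for mitosis and cytokinesis, -0.06 for mitochondrial DNA replication and 0.04 for all genes.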

How the data were processed

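The data are 1 nuclear RNA library of glia and 1 of GNP. The authors aligned unpaired reads with TopHat 1.3.1 using FlyBase gene models and computed the deposited FPKM per gene with Cuffdiff 1.3.0; the submitters' processing notes name dm3. The strandedness of the library is not given in the sources used here. The deposited columns with a p-value and a call compare the same 2 libraries and were not used. The change of each gene was log2((FPKM in glia + 1)/(FPKM in GNP + 1)), with a limit of 2-fold and no test.

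The members and the lists were chosen with earlier results of these data known; 7 comparison lists and 6 marker lists hold genes picked for textbook roles. All members are named. Of each comparison list, the 2 lowest and 2 highest genes, those against its direction and some complex partners of members are named. The genes chif, dap, stg, TFAM, mtRNApol and the histone rows were named after their values were seen. Symbols were matched to RefSeq for 13568 genes. The symbol lat is a synonym of 2 RefSeq genes and DNApol-epsilon of 2 others; each was assigned to the gene that no other symbol in the values names.

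Depth was estimated from low FPKM of 5730 genes that have 1 annotated transcript, no shorter than 600 bases, assuming fragments of 200 bases; 85.0% of low values in glia and 83.3% in GNP lay within 0.1 of a whole read. BDGP6 positions and lengths are later than the authors' annotation. The estimate and the counts were run on simulated data with known depths and folds. That run checked the calculation only, because it could not test the assumed fragment length or the BDGP6 lengths. Scripts ran in Python 3.11.15 with scipy 1.17.1, matplotlib 3.10.9, pandas 2.3.3 and numpy 2.4.6. Promoter motifs were not analysed here. A gene of the nucleotide supply list is not reported here.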

Additional observations from a re-analysis of the deposited data

How the results depend on the processing

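All 34 members stayed lower in glia under each of the 5 alternatives run on their log2 changes (170 values, all below 0). For all genes this count was made with the deposited FPKM only (5919 of 13623 below 0). The median log2 change of the members was -1.98 with a pseudocount of 0.1, -1.88 centred on the median gene, -1.68 with upper quartile scaling, -2.10 with TPM, and -1.55 without the members whose exons overlap another gene, an alternative chosen after seeing the data. Of the members 30 to 32 were at least 2-fold lower under the scalings, pseudocount and filter (13.9% to 22.5% of the genes that entered each setting), 33 with a limit of 1.5-fold (3287 of all 13623 genes) and 14 with a limit of 4-fold (614); without overlapping genes it was 17, since only 20 genes enter. Of all genes, a limit of 4-fold left 1153 higher and 614 lower. TPM gave 2550 higher and 2780 lower genes, against 2893 and 2231 with deposited FPKM. The median of the mitochondrial DNA replication list lay near 0 and changed sign, at 0.11 with upper quartile scaling against -0.06, as did Psf3 (-0.0012 with TPM). Of 98 counts for the comparison lists, 10 moved by over 1.5 times, or to or from 0. All of these moved with the limit changed to 1.5-fold or 4-fold, not under the scalings, pseudocount or filter. No paired analysis was possible because each cell type has 1 library, and no library could be left out. Values of the members were well above the level of a few reads, so depth did not limit them.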

Other observations

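Of 6 genes that replicate mitochondrial DNA, 3 had log2 changes below 0, the direction of the nuclear members, and 3 above 0. The gene mtSSB, the mitochondrial single-strand binding protein, was at 135 FPKM in glia and 42.3 FPKM in GNP (log2 change 1.65), where nuclear RPA2 had -1.88; it overlaps an exon of CG31287 on the opposite strand. DNApol-gamma35, the accessory subunit of the mitochondrial polymerase, was at 23.1 FPKM in glia and 14.2 FPKM in GNP (0.67), and CG5924, annotated as the mitochondrial helicase, at 13.0 and 8.97 FPKM (0.49). The gene tam, the catalytic subunit of the same polymerase, was at 2.43 FPKM in glia and 18.2 FPKM in GNP (-2.48). TFAM was at 86.1 FPKM in glia and 137 FPKM in GNP (-0.66), and mtRNApol at 10.1 and 16.0 FPKM (-0.62). Like mtSSB, the other genes above 0 overlap exons of other genes, CG5924 those of CG4537 on the opposite strand. DNApol-gamma35 overlaps GatC on its own strand. No exon of another gene overlaps tam, TFAM or mtRNApol, and the part of overlaps in these changes was not tested. The median of the 6 was -0.06. Both polymerase genes flank Orc5 on chromosome 2L, where tam lies from 13823980 to 13827772 and DNApol-gamma35 from 13831482 to 13833105 of BDGP6, and the exons of DNApol-gamma35 overlap those of Orc5. The 3 neighbours had log2 changes of -2.48, -1.67 (Orc5) and 0.67.

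Of 28 DNA repair genes, 17 were at least 2-fold lower in glia and 0 at least 2-fold higher, with a median log2 change of -1.19. The mismatch repair genes spel1 and Msh6 were the lowest, at 1.56 and 2.29 FPKM in glia against 15.3 and 19.3 FPKM in GNP (-2.67 and -2.63). The genes above 0 were Lig4, at 3.33 FPKM in glia and 2.09 FPKM in GNP (0.49), Ku80, at 6.40 and 5.04 FPKM (0.29), and Ercc1, at 1.70 and 1.37 FPKM (0.19). The 9 deposited rows of replication-dependent histones, looked at after other values were seen, had log2 changes of -2.70 to -1.46. These genes are near-identical copies, and 2 His4 rows hold the same values, so the reads of single copies are uncertain.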
